A study of Mus musculus with 4 samples.

Results

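The cells described here were 317 macrophages of the inflamed mouse pancreas whose single-cell libraries held messenger RNA of cell division genes. They were chosen in the C2D library by a rule on UMI counts, a UMI being 1 counted RNA molecule. A barcode needed 500 or more UMIs from 200 or more genes, with mitochondrial UMIs making up no more than 20%. It had to have at least 10 UMIs of C1qa, C1qb and C1qc together, at most 2 of the fibroblast gene Col3a1 and at most 1 of the epithelial gene Krt18. Finally it had to have at least 3 UMIs of Mki67, Top2a and Cenpf together, 3 genes called the trio below. The members were 317 of 1956 C1q macrophages (16.2%, exact 95% interval 14.6 to 17.9), of 4656 C2D barcodes that passed the filter and of 12807 such barcodes in the series. They made up 65.5% of the 484 C2D barcodes with 3 or more trio UMIs.

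All 4 libraries were made from whole pancreas of C57BL/6 wild-type mice, as single cells sorted for the absence of DAPI staining (live cells) and processed with a droplet 3′ assay. C2D came from mice with caerulein-induced pancreatitis after 2 days of recovery, and S2D from saline-treated, inflammation-naïve mice at 2 days. C6W and S6W were the corresponding caerulein and saline libraries at 6 weeks. Caerulein overstimulates the acinar cells, which make digestive enzymes, and the damaged gland fills with macrophages. Each condition had 1 library, so no difference below has a replicate check. Intervals cover counting error only, and no p-value is given.

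The 4 libraries held 29145886 to 71547194 UMIs, with 2032 to 4656 barcodes kept and a median of 8339 to 14061 UMIs per kept barcode. Of 17567 barcodes, 50 occurred in more than 1 library, and 1 member carried such a barcode. Members had a median of 15298 UMIs, 3335 genes and 3.02% mitochondrial UMIs. The 1053 C1q macrophages of C2D with no trio UMI, to which they are compared below, had medians of 13867 UMIs, 3106 genes and 2.97%.

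Macrophages in tissue can renew themselves by dividing in place, driven largely by the growth factor Csf1 and its receptor, and they can be replaced from blood monocytes. A dividing cell first copies its DNA with replication and nucleotide-making enzymes, and then switches on a late programme of mitosis genes. Mki67 encodes Ki-67, a protein that coats mitotic chromosomes and is the common stain for cycling cells. Top2a encodes the topoisomerase that untangles DNA, and Cenpf a protein of the kinetochore, which ties chromosomes to the spindle. Both belong to the late programme. Its promoters often carry a cell cycle homology element with the letters TTTGAA, bound by the DREAM and B-MYB complexes, near CCAAT boxes bound by NF-Y.

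The promoters of 2 of the trio genes and of Cdc20, the mitotic exit activator discussed below, are shown because the results turn on Mki67 being counted without the others. Each line gives the 200 bases before the RefSeq transcription start in GRCm38.p6, 5′ to 3′ on the strand of the gene, with TTTGAA and CCAAT in capitals on either strand (TTCAAA and ATTGG in the opposite orientation). The Mki67 stretch lies at chr7:135716380-135716579 (minus strand), the Top2a stretch at chr11:99024190-99024389 (minus) and the Cdc20 stretch at chr4:118437344-118437543 (minus).
Mki67: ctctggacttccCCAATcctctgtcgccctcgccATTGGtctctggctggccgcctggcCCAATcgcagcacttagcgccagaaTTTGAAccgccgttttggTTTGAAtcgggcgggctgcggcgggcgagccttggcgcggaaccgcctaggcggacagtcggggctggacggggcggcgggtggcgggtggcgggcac
Top2a: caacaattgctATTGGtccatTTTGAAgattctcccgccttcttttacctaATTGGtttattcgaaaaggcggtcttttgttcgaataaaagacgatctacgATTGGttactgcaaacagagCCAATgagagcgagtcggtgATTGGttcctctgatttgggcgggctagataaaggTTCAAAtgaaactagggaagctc
Cdc20: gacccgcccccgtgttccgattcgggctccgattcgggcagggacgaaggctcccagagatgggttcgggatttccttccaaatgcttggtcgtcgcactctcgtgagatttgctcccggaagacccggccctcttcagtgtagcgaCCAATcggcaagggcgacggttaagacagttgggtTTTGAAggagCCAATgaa
Mki67 had TTTGAA starting 116 and 98 bases before its start, Top2a had it at 179 and, reversed, at 23, and Cdc20 had it at 18. All 3 stretches also held CCAAT letters, 3 times in Mki67, 5 times in Top2a and 2 times in Cdc20. Over 250 bases before the start, TTTGAA was found in 18 of 60 RefSeq promoters of the mitosis list and the trio (30.0%), against 16.0% of all 32851 promoters. CCAAT was found in 68.3% of those 60 promoters, against 33.8% of all, and both motifs together in 25%, against 5.55%. In the replication and nucleotide lists, 12 of 57 promoters (21.1%) held an E2F octamer (TTTCCCGC, TTTCGCGC, TTTGCCGC or TTTGGCGC on either strand), against 1.86% of all. These matches describe letters and not bound sites. In GENCODE vM21 the Mki67 gene spans chr7:135689784-135716361 on the minus strand, and no other counted gene overlaps it.

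Most members were chosen by Mki67. Mki67 had 1640 UMIs in 314 of the 317 members, Top2a had 332 UMIs in 55 and Cenpf 201 UMIs in 51. Per member, Mki67 had 0 to 32 UMIs with a median of 4. In 241 members (76.0%, exact 95% interval 70.9 to 80.6) no Top2a or Cenpf UMI was found, so that Mki67 alone brought them past the gate. Another 32 had 1 or 2 Top2a and Cenpf UMIs, and 44 had 3 or more. These values chose the members and are given as a description. At the threshold, 96 of the 108 macrophages with exactly 3 trio UMIs had no Top2a or Cenpf UMI, and so did 157 of the 185 with exactly 2.

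A list of mitosis genes that the rule did not use was then counted in these groups. Top2a and Cenpf, which formed the groups, belong to the same late programme. The difference between the groups was thus partly set by the grouping and is given as a description. The mitosis list had 58 genes of the spindle, kinetochore and chromosome segregation, without the trio. Its UMIs per cell ran from 1 to 288 with a median of 95 in the 44 members with 3 or more Top2a and Cenpf UMIs. The 32 members with 1 or 2 had a median of 6.5. The 241 members with Mki67 alone had 0 to 46 with a median of 2, against 0 to 20 with a median of 3 in the 1053 macrophages with no trio UMI. The median of the 44 stood far above those of the other groups, though the ranges overlapped, and the 241 overlapped the macrophages without the trio.

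**Figure D1:**
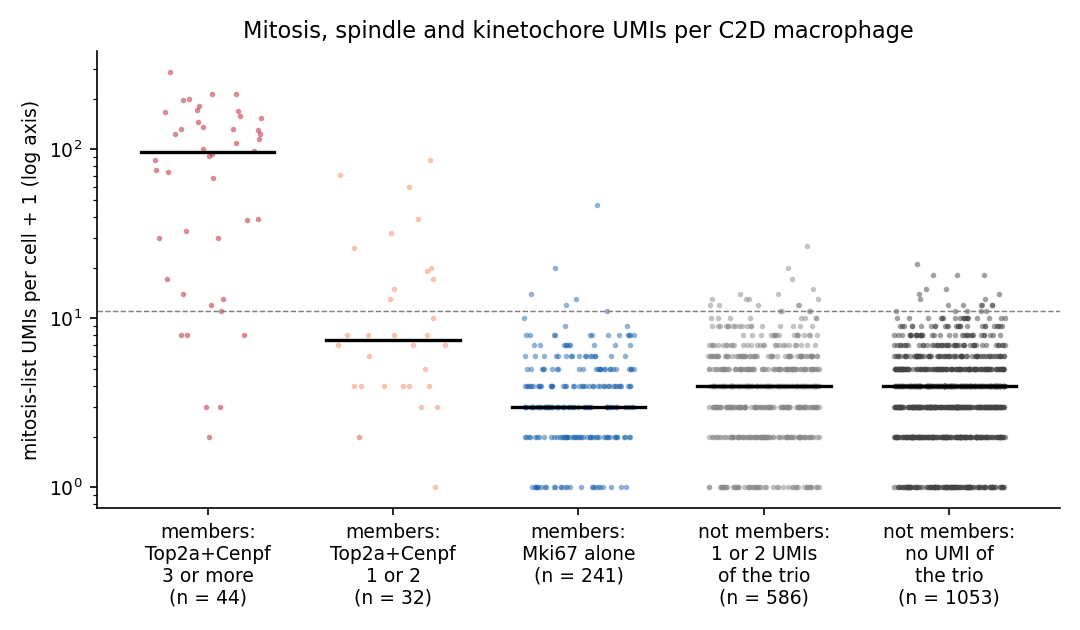
UMIs of the 58 mitosis-list genes per C2D macrophage, plus 1 on a log axis. Each point is a cell, black lines are medians and the dashed line marks 10 UMIs. The 44 Top2a/Cenpf-rich members have a median of 95, and the Mki67-alone members (median 2) overlap the macrophages with no trio UMI (median 3).

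At 10 or more mitosis-list UMIs there were 38 of the 44 Top2a/Cenpf-rich members (86.4%, 72.7 to 94.8) and 11 of the 32 in between. There were 6 of the 241 Mki67-alone members (2.49%, 0.92 to 5.34), against 21 of the 1053 macrophages with no trio UMI (1.99%, 1.24 to 3.03). In all, 55 of the 317 members (17.4%) reached this level. The label of dividing cells thus had the support of mitosis genes in a minority of members. The members are therefore called by their rule below, the 44 as Top2a/Cenpf-rich and the 241 as Mki67-alone; the split was made after the values were seen. Conversely, 40 of the 95 C2D macrophages with 10 or more mitosis-list UMIs, counted without thinning, were not members. Thinned to 5000 UMIs, no such cell stood out by the mitosis list: the highest count was 8 with no trio UMI and 7 with 1 or 2. For the replication and nucleotide lists the highest count was 18 with no trio UMI and 36 with 1 or 2. It was 26 in the Mki67-alone and 36 in the Top2a/Cenpf-rich members. Depth differed, since the Top2a/Cenpf-rich members had a median of 20540.5 UMIs and the Mki67-alone members 14945. With every cell thinned to 5000 UMIs, the median of mitosis-list UMIs was 26 in the Top2a/Cenpf-rich members and 1 in the Mki67-alone members, against 1 in the macrophages with no trio UMI.

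Both kinds of member were macrophages by their markers. The C1q genes, used by the rule, had 10 to 665 UMIs per member. Lyz2, the macrophage lysozyme, had 14 to 852 UMIs per cell (median 213.5) in the Top2a/Cenpf-rich and 9 to 1412 (median 289) in the Mki67-alone members, against 2 to 1566 (median 226) with no trio UMI. Csf1r, the receptor for Csf1, was found in 44 of 44 and 241 of 241 members, against 1045 of 1053 macrophages with no trio UMI. Adgre1 (F4/80) was found in 43 of 44 and 236 of 241, against 1008 of 1053. Those shares are at unequal depth. Thinned to 5000 UMIs, Adgre1 was found in 77.3% (62.2 to 88.5) and 90.3%, against 90.7%. The resident list was uneven in members and other macrophages alike. Thinned to 5000 UMIs, Mrc1, the mannose receptor, was found in 53.1% of 311 members against 55.4% of 983 macrophages with no trio UMI, and Folr2, a folate receptor, in 37.6% against 33.4%. The 2 kinds of member differed for Mrc1, found in 34.1% (20.5 to 49.9) of the Top2a/Cenpf-rich and 55.9% of the Mki67-alone members. For Folr2 it was 29.5% (16.8 to 45.2) and 39.0%. Lyve1 and Timd4 had no UMI in either group at that depth, which allows a share of cells with a UMI of up to 0.965% against 0.305%.

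For gene by gene comparison, the UMIs of each group were added up, scaled to an adjusted CPM (counts per 1000000 UMIs) and set over the sum of the macrophages with no trio UMI. A gene was called at a fold of 2 or more with at least 100 UMIs over both groups, and a gene of a list at 20 UMIs. Over all 317 members 66 of 8202 genes were called higher (0.805%) and 11 lower (0.134%). In the 44 Top2a/Cenpf-rich members 273 of 7740 were higher (3.53%) and 469 lower (6.06%), of which 357 (4.61%) had a counting interval that excluded no difference. In the 241 Mki67-alone members 14 of 8005 were higher (0.175%) and 25 lower (0.312%). At the minimum of 20 UMIs 2.62% of 10746 genes were higher and 1.54% lower over all members. There 50 of 54 mitosis-list genes were higher (median log2 ratio 3.65), 20 of 40 replication genes (1.03) and 15 of 24 chromatin genes (1.24), while the lipid-associated list had a median of -0.29 and the inflammatory list of 0.14. Over the genes with 20 or more UMIs in the macrophages with no trio UMI these counts were 21 of 25 mitosis (median 2.04), 12 of 32 replication (0.86) and 14 of 23 chromatin genes (1.2). These values pool unlike cells, so each kind of member is described in turn.

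In the 44 Top2a/Cenpf-rich members most genes of the mitosis, replication, nucleotide and chromatin lists were higher. Of 54 mitosis-list genes with 20 or more UMIs, 53 were at least 2-fold higher than in the macrophages with no trio UMI and 0 lower, with a median log2 ratio of 5.77. Over all 10440 genes at that minimum 7.66% were higher and 7.84% lower, with a median of -0.07. Since many list genes passed the minimum through the members' own UMIs, the 25 with 20 or more UMIs in the macrophages with no trio UMI are a second count, with 24 higher and a median of 4.14. The same second count is given for the other lists below.

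Among the spindle and segregation genes, Birc5 (survivin, of the chromosomal passenger complex) had 0 to 28 UMIs per Top2a/Cenpf-rich cell with a median of 9.5, against 0 to 4 with a median of 0 in cells with no trio UMI. It was found in 35 of 44 and 33 of 1053 cells, at 387 and 2.92 CPM, a log2 ratio of 7.05 (6.60 to 7.54). Cdc20, which activates the ubiquitin ligase that ends mitosis, had 97 UMIs in 19 cells against 4 UMIs in 4 cells (log2 8.44, 7.04 to 10.34). The groups overlapped at 0 UMIs, as many Top2a/Cenpf-rich cells had none of a given gene. Nusap1, which binds spindle microtubules, had 102 UMIs in 24 cells against 1 UMI, and Tpx2, a spindle assembly factor, 109 UMIs in 29 cells against 15 UMIs. Hmmr had 76 UMIs against 0 (at least 363-fold higher, counting the 0 as a floor of 3 UMIs over the group). Plk1, a mitotic kinase, had 37 UMIs against 5.

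Of the cyclins and their kinases 11 of 17 were higher and 0 lower, with a median of 2.46. Over the 12 with 20 or more UMIs in the macrophages with no trio UMI it was 6, with a median of 1.38. Ccna2 (cyclin A2) had 130 UMIs in 31 of 44 cells against 6 UMIs in 6 of 1053 (log2 8.28, 7.12 to 9.75), and Ccnb1 (cyclin B1) 79 UMIs in 21 cells against 6 UMIs. Cdk1, the kinase they activate, had a log2 ratio of 4.81 (4.38 to 5.25). The D-type cyclins, which couple growth signals to the cycle, did not follow. Ccnd1 was at 19.4 against 32.5 CPM (log2 -0.74), Ccnd2 at 9.70 against 14.7 CPM and Ccnd3 at 38.8 against 37.1 CPM. Of 17 inhibitors and pocket proteins 3 were higher and 1 lower (median -0.16). The 3 were Cdkn2c (p18), at 61.1 against 6.10 CPM (log2 3.32, 2.84 to 3.81), Rbl1 (p107), with a log2 ratio of 2.62, and Cdkn2d (p19), with 1.95. The inhibitor Cdkn1a (p21) was at 534 against 851 CPM (log2 -0.67, -0.80 to -0.55). The mitosis regulator Foxm1 had 46 UMIs in 25 cells against 6 UMIs (log2 6.78), while Myc had 9 UMIs in 44 cells against 151 in 1053 (log2 -0.23, -1.39 to 0.73).

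Replication and chromatin genes were higher as well. Of the G1/S and replication list 33 of 37 were higher and 1 lower (median 2.27), and 28 of 32 in the second count (median 2.10). Of the nucleotide synthesis list 11 of 16 were higher (median 1.75), and 9 of 14 in the second count (median 1.41). Rrm2, a subunit of the enzyme that makes deoxynucleotides, had 67 UMIs in 15 of 44 cells against 3 UMIs in 3 of 1053. Pclaf, a partner of the replication clamp, had 248 UMIs in 34 cells against 20 UMIs in 17 cells (log2 7.47, 6.81 to 8.21). Pcna, the clamp itself, was at 79.6 against 32.2 CPM (log2 1.30, 0.95 to 1.65), and 358 of the 1053 macrophages with no trio UMI also carried it. Of 24 chromatin and high mobility group genes 21 were higher (median 2.92), and 20 of 23 in the second count (median 2.91). Stmn1, which destabilises microtubules, had 0 to 65 UMIs per cell (median 23) against 0 to 18 (median 0), and H2afz, a histone variant, 9 to 101 (median 53.5) against 0 to 51 (median 7).

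The 44 cells did not all carry the same mix of replication and mitosis genes. Replication and nucleotide UMIs per cell ran from 7 to 233 with a median of 27. Thinned to 5000 UMIs, 30 cells had 10 or more mitosis-list UMIs and 7 had 20 or more replication and nucleotide UMIs. Both levels were reached in 5 cells, the mitosis level alone in 25, the replication level alone in 2 and neither in 12. Cells below the replication level were not free of these genes. The thinned median was 7.5 such UMIs in the 44 cells, against 3 with no trio UMI. None of the 983 thinned macrophages with no trio UMI reached either level. In 12 of the 44, Ccnb1, Cdc20, Plk1, Aurka, Cenpe and Cenpa together had 5 or more UMIs, and none of those 12 reached 20 replication and nucleotide UMIs.

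**Figure D2:**
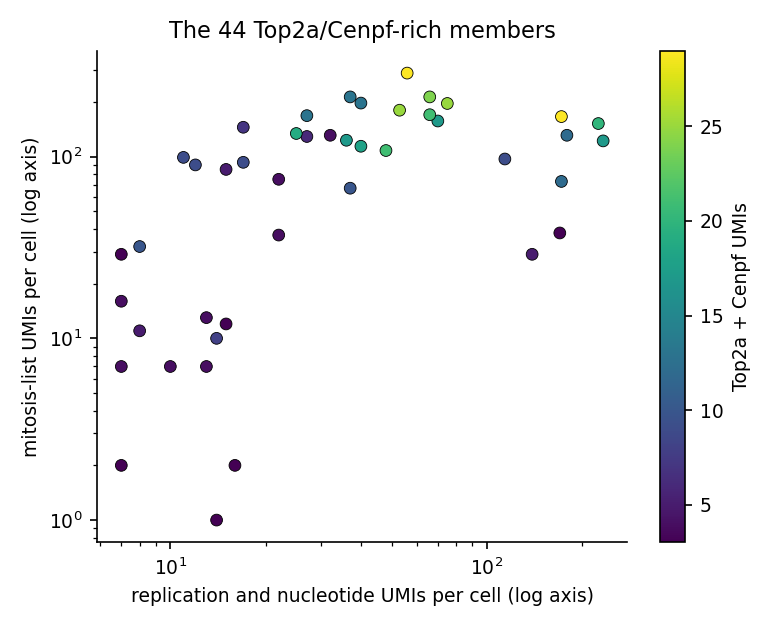
Replication and nucleotide UMIs (61 genes, log x axis) against mitosis-list UMIs (58 genes, log y axis) in each of the 44 Top2a/Cenpf-rich members, coloured by Top2a and Cenpf UMIs. Mitosis-list UMIs span 1 to 288 and replication and nucleotide UMIs 7 to 233, and the cell with 288 mitosis-list UMIs had 56 of the other kind.

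Outside the cell cycle, most macrophage lists had medians below 0 in the Top2a/Cenpf-rich members. Over all genes the median was -0.07, and 7.84% were lower. The lipid-associated list was lowest, with a median of -0.76 over 20 measured genes. Of these 9 passed 2-fold downward (45%) and 0 upward. The phagocytic receptor and complement list was at -0.72, alternative activation at -0.51 and the lysosome list at -0.47. Class II genes (0.30) and respiratory chain genes (0.13) lay above 0. Apoe, the lipid carrier, had 2 to 1776 UMIs per cell (median 488) against 1 to 3283 (median 675), at 23821 against 56942 CPM (log2 -1.26, -1.28 to -1.24). Gpnmb, a lysosomal glycoprotein, was found in 20 of 44 against 593 of 1053 cells, at 190 against 453 CPM (log2 -1.25). At 5000 UMIs Gpnmb was found in 22.7% (11.5 to 37.8) of the Top2a/Cenpf-rich members and 49.2% of the Mki67-alone members, against 48.1% of those with no trio UMI. Fabp5, a fatty acid carrier, had a log2 ratio of -1.13, and Spp1 (osteopontin) of -1.02. For Spp1 the cells did not follow the sum: they had 0 to 98 UMIs with a median of 13.5, against 0 to 398 with a median of 8, and at 5000 UMIs it was found in 79.5% against 76.2% of cells.

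Of 12 resident and scavenger genes 4 were lower (33.3%, median -0.53), against 7.84% of all genes. Igf1, a growth factor made by macrophages, had 21 UMIs in 9 of 44 cells against 1669 UMIs in 463 of 1053 (log2 -2.47, -3.17 to -1.86), and Selenop, a selenium carrier, was at 1296 against 3208 CPM. Cd5l, a secreted macrophage survival protein, had 4 UMIs against 658 (log2 -3.52, -5.40 to -2.16). Of 19 macrophage identity genes 1 was lower (5.26%, below the share of all genes) and 0 higher (median -0.47). Csf1r was at 717 against 835 CPM (log2 -0.22, -0.33 to -0.11) and Adgre1 at 289 against 566 CPM (log2 -0.97). Csf1r was found in 44 and Adgre1 in 43 of the 44 cells.

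Of 22 interferon genes 8 were lower (36.4%, against 7.84% of all genes) and 1 was higher (median -0.66). Of the 8, 6 had a counting interval that excluded no difference. Ifit1, an antiviral RNA-binding protein, had 5 UMIs in 3 cells against 752 UMIs in 180 cells (log2 -3.39, -5.02 to -2.16), and Rsad2, viperin, 18 against 1322 UMIs. Cxcl10, a chemokine that attracts T cells, was the higher one, with 0 to 144 UMIs per cell (median 15) against 0 to 142 (median 1), at 1354 against 581 CPM (log2 1.22, 1.14 to 1.30). At 5000 UMIs it was found in 77.3% (62.2 to 88.5) against 47.0% of cells. Il10, an anti-inflammatory cytokine, was lower (83.4 against 351 CPM, log2 -2.07), while Il1b had nearly the same level (2629 against 2647 CPM).

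The monocyte receptor Ccr2 was at 348 against 214 CPM (log2 0.70, 0.54 to 0.86) and was found at 5000 UMIs in 65.9% (50.1 to 79.5) against 44.2% of cells. Class II genes were uneven: H2-Aa was found in 23 of 44 against 455 of 1053 cells and had a log2 ratio of 0.58, with up to 444 UMIs in 1 cell. The dendritic cell receptor Flt3 was found in 8 of the 44 against 55 of 1053 cells, at unequal depth, and at 5000 UMIs in 1 of 44 (2.27%) against 30 of 983 (3.05%). Without the cells with a Flt3 UMI, which leaves 36 against 998, the log2 ratio was -0.38 for H2-Aa, 0.57 for Ccr2, 1.07 for Cxcl10 and -1.10 for Apoe, and the mitosis list kept a median of 5.63.

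In the 241 Mki67-alone members the cell cycle list medians lay between -0.12 (mitosis) and 0.23 (replication). No gene of the mitosis, replication, nucleotide, cyclin or chromatin list was called higher. Their 1148 Mki67 UMIs came as 3 to 20 per cell with a median of 4. Of 26 mitosis-list genes with 20 or more UMIs 0 were higher and 1 lower, with a median log2 ratio of -0.12, and over all 10550 genes at that minimum 1.07% were higher and 2.36% lower, with a median of -0.02. Of 35 replication genes, 16 nucleotide genes, 12 cyclins and kinases and 23 chromatin genes, 0 were higher and 0 lower. Their medians were 0.23, -0.11, 0.12 and -0.04.

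Single genes were low in both groups. Nusap1 had no UMI in the 241 Mki67-alone members, against 1 in the 1053 macrophages with no trio UMI. Ccna2 had 1 UMI against 6, and Cdc20 2 UMIs, both in 1 cell, against 4. Cdk1 had 12 UMIs in 11 cells against 69 in 63 (log2 -0.51, -1.53 to 0.38). Birc5 had 21 UMIs in 11 cells against 43 in 33 (log2 0.98, 0.15 to 1.76), with 8 of the 21 in 1 cell. Pcna was at 30.8 against 32.2 CPM and Stmn1 at 46.9 against 51.7 CPM.

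**Figure D3:**
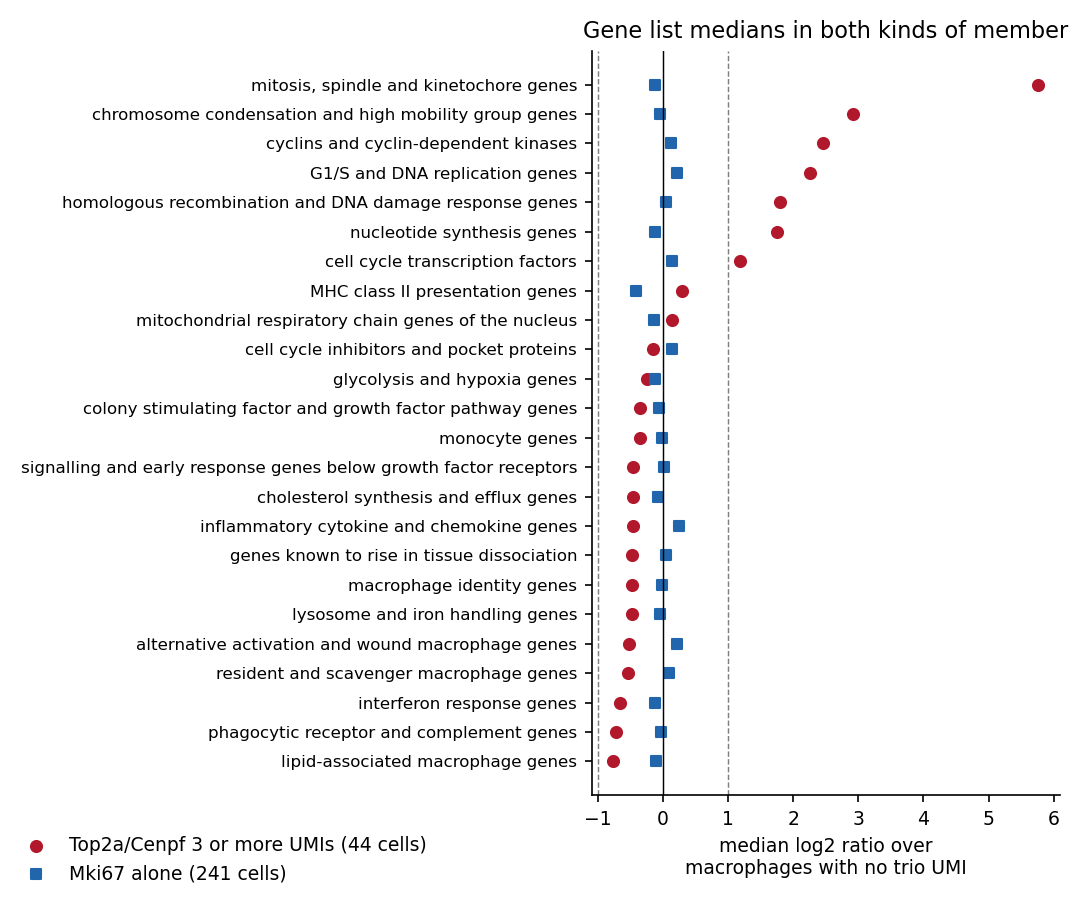
Median log2 ratio of each gene list other than the markers of other cell types, over C2D macrophages with no trio UMI, in the 44 Top2a/Cenpf-rich members (red circles) and the 241 Mki67-alone members (blue squares); dashed lines mark 2-fold. Cell cycle lists reach 5.77 in the first, while the Mki67-alone medians of the cell cycle lists lie between -0.12 and 0.23.

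In the Mki67-alone members 0 of 25 inflammatory genes were called higher or lower. The list had a median of 0.24, and its summed level was 34819 against 28529 CPM. The replication list above had a median of nearly the same size, 0.23, and a summed level of 412 against 379 CPM. Il1a, the danger signal interleukin 1 alpha, had 0 to 48 UMIs per cell (median 3) against 0 to 44 (median 1), at 371 against 191 CPM (log2 0.96, 0.87 to 1.06). At 5000 UMIs it was found in 56.8% (50.2 to 63.2) of them, against 38.8% (35.7 to 41.9). In the Top2a/Cenpf-rich members Il1a was at 193 CPM and found in 38.6% of cells.

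Cxcl1, a neutrophil attractant, had 0 to 144 UMIs per cell (median 10) against 0 to 174 (median 1), at 1353 against 822 CPM (log2 0.72, 0.67 to 0.77). Cd40, a costimulatory receptor, was at 136 against 81.1 CPM (0.74), and Il10 at 493 against 351 CPM (0.49). The NF-kB feedback inhibitors Tnfaip3 and Nfkbia had log2 ratios of 0.40 and 0.27, Il1b 0.27 and Cd14, the endotoxin co-receptor, 0.26. Cdkn1a was at 1021 against 851 CPM (0.26, 0.21 to 0.32). The per-cell ranges of all these genes overlapped almost fully between the groups.

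On the lower side were Txnip, a thioredoxin inhibitor, with 25 UMIs against 325 (6.82 against 22.0 CPM, log2 -1.69, -2.34 to -1.10), Ass1, an arginine synthesis enzyme, with 15 against 268 (-2.15), and Cd5l with 51 against 658 (-1.68). Class II genes had a median of -0.41 over 14 genes, 1 of them past 2-fold, with H2-Aa at 1050 against 1491 CPM (-0.51) and Cd74 at 3428 against 4425 CPM (-0.37). Macrophage identity had a median of -0.01 over 19 genes, with 0 higher and 0 lower, and Csf1r, Apoe and Spp1 had log2 ratios of 0.07, 0.06 and 0.11. G0s2 had the highest ratio in these members, but 222 of its 225 UMIs over all members came from 1 barcode rich in neutrophil genes.

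Some inflammatory genes were at a higher level the more Mki67 UMIs a cell had. Among macrophages with no Top2a or Cenpf UMI and 10000 to 30000 UMIs, 857 had 0, 304 had 1, 135 had 2 and 220 had 3 or more Mki67 UMIs, at median depths of 14871, 15202, 14584 and 15135.5 UMIs. Of the 25 inflammatory genes 21 (84%) were at a higher level with 3 or more than with 0 Mki67 UMIs, against 46.1% of 10900 genes with 20 or more UMIs. At each of the 3 steps 7 of the 25 (28%) were higher than at the step before, against 3.53% of all genes. These shares take any difference, however small. In the order of the groups Il1a was at 192, 287, 289 and 369 CPM, Cxcl1 at 816, 972, 1158 and 1332 CPM, and Tnfaip3 at 769, 877, 956 and 1018 CPM. Tnfaip2, another NF-kB target, was at 266, 343, 367 and 414 CPM. These 4 were chosen after their values were seen. Between 1 and 2 Mki67 UMIs the intervals of Il1a overlapped, and so did those of Tnfaip2. Other genes did not follow at the last step: Il1b was at 2606, 3063, 3204 and 3126 CPM and the activation marker Cd83 at 1371, 1566, 1796 and 1708 CPM. Ccl8, a chemokine, was at 130, 186, 123 and 91.3 CPM.

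The mitosis list showed no such steps, at 217, 212, 238 and 201 CPM, and neither did Pcna at 31.1, 33.7, 36.8 and 29.7 CPM. All these cells lacked Top2a and Cenpf UMIs, so a low mitosis level was partly set by that choice. The summed replication list was at 382 CPM (372 to 393) with 0 Mki67 UMIs. It was higher in the other groups, at 449 (430 to 468), 416 (389 to 444) and 419 CPM (397 to 441), but did not rise at each step. Its intervals at 0 and 2 Mki67 UMIs overlapped. H2-Aa was at 1476, 1397, 1556 and 1003 CPM, low in the last group alone, and Txnip at 20.1, 12.2, 4.72 and 6.56 CPM. These values come from 1 library, and cells of 1 library are not replicates.

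**Figure D4:**
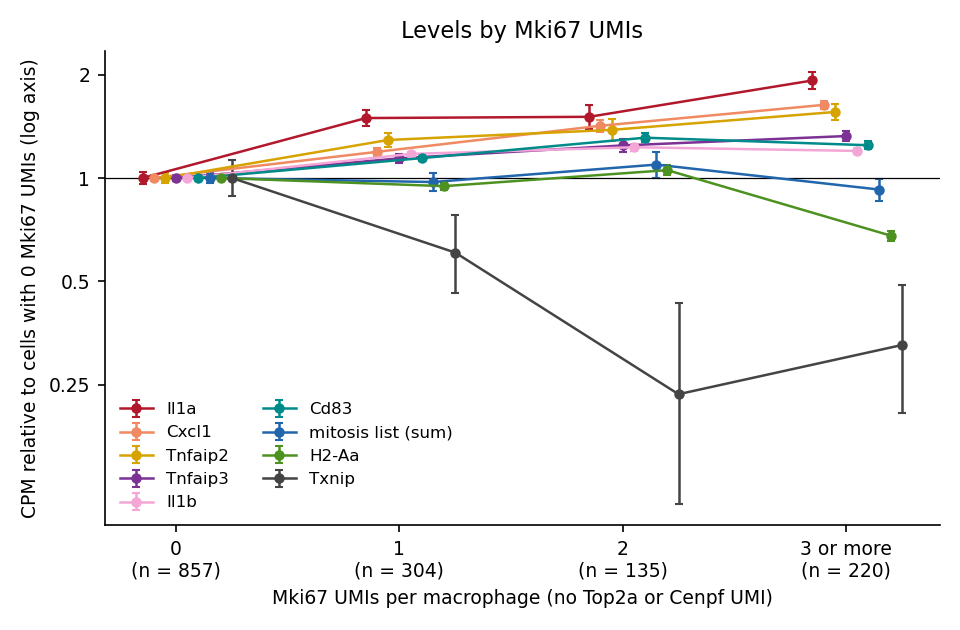
CPM in C2D macrophages without a Top2a or Cenpf UMI (10000 to 30000 UMIs), grouped by Mki67 UMIs per cell and divided by the level at 0 (log axis); bars are exact Poisson 95% intervals. At 3 or more Mki67 UMIs Il1a, Cxcl1, Tnfaip2 and Tnfaip3 lie at their highest, Il1b and Cd83 lie below their level at 2, the summed mitosis list lies near 1 and Txnip below 1.

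Mki67 was set beside Top2a and Cenpf in the other C2D cells at equal depth. Thinned to 5000 UMIs, Mki67 was found in 461 of 1863 C1q macrophages (24.7%, 22.8 to 26.8) and in 29 of 117 Lyz2 cells with low C1q (24.8%, 17.3 to 33.6). It was found in 43 of 282 Flt3 cells (15.2%), in 4 of 53 T cells (7.55%), in 21 of 660 Krt18 epithelial cells (3.18%) and in 10 of 530 fibroblasts (1.89%, 0.91 to 3.44). Before thinning these classes had median depths of 14475, 12624.5, 13028, 5375, 11160 and 22242 UMIs. Of the cells with an Mki67 UMI, 90.2% of the C1q macrophages and 93.1% of the Lyz2 cells had no Top2a or Cenpf UMI, against 9 of 10 fibroblasts, 74.4% of the Flt3 cells, 28.6% of the Krt18 cells and 0 of 4 T cells.

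Past the gate of 3 trio UMIs, without thinning, 55 of 317 macrophages had 10 or more mitosis-list UMIs, against 19 of 34 Flt3 cells, 7 of 8 T cells, 27 of 30 Krt18 cells and 3 of 5 fibroblasts. In the Lyz2 cells with low C1q it was 1 of 18. These cells differed in depth, with a median of 15298 UMIs in the members, 19781.5 in the Flt3 cells and 23406.5 in the Krt18 cells. Thinned to 5000 UMIs, the median of mitosis-list UMIs was 1 in the members and 2 in the Lyz2 cells. It was 5 in the Flt3 cells, 13 in the Krt18 cells and 30 in 6 T cells. At equal depth the same gate thus took cells with a higher mitosis-list median in these 3 classes than in macrophages.

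**Figure D5:**
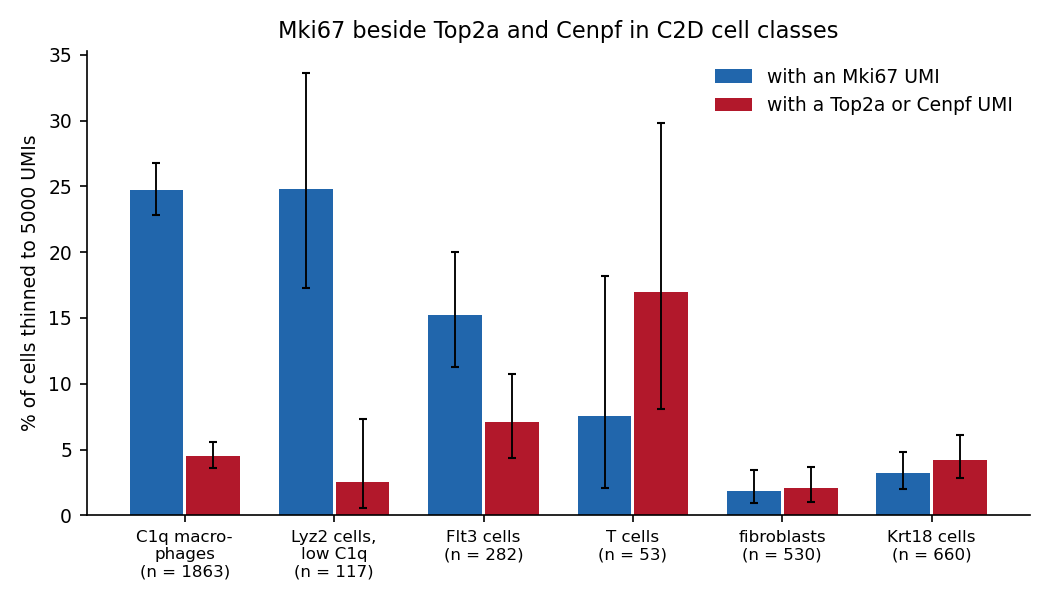
Share of C2D cells of each class with an Mki67 UMI (blue) and with a Top2a or Cenpf UMI (red) after thinning to 5000 UMIs; bars are exact 95% binomial intervals. Mki67 is found in 24.7% of C1q macrophages, against 4.51% for Top2a or Cenpf.

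In the other libraries few macrophages passed the gate. There were 317 of 1956 in C2D, against 0 of 67 in S2D, which allows a share of up to 4.48%. At 6 weeks there were 4 of 93 in C6W (4.30%, 1.18 to 10.6), against 3 of 115 in S6W (2.61%, 0.54 to 7.43). Median macrophage depth was 14475 UMIs in C2D and 8582 in S2D, 10927 in C6W and 8731 in S6W. Thinned to 2000 UMIs, 299 of 1943 C2D macrophages had a trio UMI (15.4%, 13.8 to 17.1), against 0 of 66 in S2D, and 5 of 92 in C6W (5.43%), against 3 of 115 in S6W (2.61%). At 5000 UMIs it was 517 of 1863 in C2D (27.8%, 25.7 to 29.8), against 4 of 55 in S2D (7.27%, 2.02 to 17.6). In C6W it was 8 of 84 (9.52%), against 6 of 106 in S6W (5.66%). At both depths the C2D share lay above the interval of S2D. A Top2a or Cenpf UMI, in the same draw, was found in 3.86% of C2D cells, against 3.64% (2 of 55) in S2D. In C6W it was 2.38%, against 1.89% in S6W. No difference between libraries is read from these Top2a and Cenpf shares.

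Over all macrophages of a library, Mki67 was at 81.2 CPM (78.0 to 84.6) in C2D against 6.78 (1.85 to 17.3) in S2D, and at 59.2 CPM in C6W against 14.6 in S6W. Top2a was at 13.4 CPM (12.1 to 14.8) in C2D against 5.08 (1.05 to 14.9) in S2D, intervals that overlapped. It was at 31.9 CPM in C6W against 1.83 in S6W. Cenpf was at 7.87 CPM (6.87 to 8.96) in C2D and at 0 (up to 6.25) in S2D. In C6W, 1 cell with 63281 UMIs held 28 Mki67, 28 Top2a and 290 mitosis-list UMIs. The other 3 C6W cells had 2 to 19 Mki67 and 1 to 7 mitosis-list UMIs, and the 3 S6W cells 3 Mki67 and 0 to 4 mitosis-list UMIs each. Neutrophils, taken by 20 or more S100a8 and S100a9 UMIs with few C1q, Col3a1 and Krt18 UMIs, were counted as well. Their maturity was not tested. They passed the gate in 0 of 15 in C2D and 0 of 13 in S2D, and in 3 of 16 in C6W and 0 of 2 in S6W. Their median depths were 2220, 2520, 3191 and 3472 UMIs. The C6W macrophage share lay below that of its neutrophils (18.75%, 4.05 to 45.6), and its interval overlapped that of the S6W macrophages. No difference from S6W is therefore read from it, and the cell with 290 mitosis-list UMIs is given as 1 cell.

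Markers of other cell types were low in most members. Of 10 T and NK cell genes, 9 had no UMI in the Top2a/Cenpf-rich members and 5 none in the Mki67-alone members, and the list had a median of 0 UMIs per cell in both, as with no trio UMI. The lists of B and plasma cells, dendritic cells, ductal, endothelial and mural cells also had medians of 0. The fibroblast list had a median of 1 UMI in both kinds of member, against 0 with no trio UMI. Its level was 38.3 CPM in the Top2a/Cenpf-rich and 53.2 CPM in the Mki67-alone members, against 50.8 CPM. Acinar genes, the most abundant RNA of the tissue, had a median of 14 UMIs per Top2a/Cenpf-rich cell and 12 per Mki67-alone cell, against 12 with no trio UMI, and 1 Top2a/Cenpf-rich cell held 1989. Of 8 neutrophil genes, 4 had no UMI in the Top2a/Cenpf-rich members, and in the Mki67-alone members 391 of 742 UMIs lay in 1 barcode. Over the 5 neutrophil genes with 20 or more UMIs the Mki67-alone median was 3.59. Over the 3 with 20 or more UMIs in the macrophages with no trio UMI it was 0.18. The others passed the minimum through the members' own UMIs. The mast and erythroid list, on 3 such genes, had medians of -7.62 and -5.25 in the 2 kinds of member, with 5099 of the 9652 UMIs with no trio UMI in 1 barcode. The dendritic list was at 29.5 CPM and 44.7 CPM in the 2 kinds of member, against 18.3 CPM, with up to 90 UMIs in 1 cell; its part in the class II values above was not tested beyond leaving out the Flt3 cells.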

How the data were processed

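Raw UMI counts per gene and barcode (31053 genes, 4 libraries), deposited by the authors as filtered matrices, were used; Cell Ranger 3.0.2 and the mm10 build are given per the submitters' processing notes. The filter and the gates are those stated with the members. Members and gene lists were chosen with earlier results of these data known, and the split by Top2a and Cenpf after the values were seen.

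The counts of each group were added and divided by library totals corrected with TMM (edgeR 4.0.16 in R 4.3.3), with factors of 1.03 for all members, 1.13 for the Top2a/Cenpf-rich and 0.999 for the Mki67-alone members relative to the macrophages with no trio UMI. Log2 ratios have exact conditional binomial 95% intervals, CPM values exact Poisson and shares exact Clopper-Pearson intervals (SciPy 1.17.1), for counting error only. A sum of 0 was replaced by 3 counts and its ratio is a bound, and for a share of 0 the limit that 3 cells give is printed. With 1 library per group no test between conditions was possible, and no p-value was computed. The genes of the rule (the trio, C1qa, C1qb, C1qc, Col3a1 and Krt18) stayed out of all counts and lists. Thinning drew 5000 or 2000 UMIs per cell without replacement. The ratio and its interval were tested on simulated data with known changes.

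Doublets were treated as an alternative. Scrublet (scanpy 1.11.5) called 19 of 4656 C2D barcodes, which is too few to have worked, so the 173 highest scores were left out instead (9 members). The named genes were the 12 highest and 12 lowest ratios, the 12 highest outside the cell cycle lists, up to 4 of each list with the largest ratio and a fixed set, of which 1 gene is not reported here. Plk1, H2afz, Fabp5, Apoe, Nfkbia, Tnfaip2 and the genes of the steps with Mki67 were added after their values were seen. Alternatives were plain CPM, DESeq2 1.42.0 size factors, totals without cell cycle lists, other count minimums, gates and comparison cells, equal depth, and leaving out barcodes rich in neutrophil genes or with a Flt3 UMI. Promoter letters came from RefSeq (GRCm38.p6) and gene positions from GENCODE vM21.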

Additional observations from a re-analysis of the deposited data

How the results depend on the processing

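Of 256 alternative values for the 25 main counts, medians and shares, 203 stayed within 1.5 times the count or within the counting interval, 52 moved and 1 reversed. No paired analysis was possible because each condition has 1 library. Of 1218 alternative values for the other lists and genes, 1067 stayed within the interval, 148 moved and 3 reversed.

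The members as a whole depended on which kind of member entered. With the Top2a/Cenpf-rich cells alone 273 genes were higher and 469 lower, in place of 66 and 11, and the medians were 5.77 (mitosis, 3.65 in all members), 2.27 (replication, 1.03), -0.76 (lipid-associated, -0.29) and -0.46 (inflammatory, 0.14). With the members of 1 or 2 Top2a and Cenpf UMIs alone, 433 genes were lower and the mitosis and lipid-associated medians were 1.66 and -0.48. With the Mki67-alone members 14 genes were higher and 25 lower, and the medians were -0.12 (mitosis, reversed), -0.037 (chromatin, reversed), 0.23 (replication), -0.11 (lipid-associated) and 0.24 (inflammatory). A gate of 6 trio UMIs gave 144 higher and 72 lower genes, with medians of 4.85, 1.73, -0.34 and 0.027 in the same order as for the Top2a/Cenpf-rich cells. It left 5.73% of C2D macrophages as members, 0% of S6W macrophages, 56.25% of members without Top2a or Cenpf and 38.4% with 10 or more mitosis-list UMIs. The S6W share was also 0% among cells of 10000 to 30000 UMIs.

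Minimums on counts set how many genes were tested. At 20 UMIs (lists at 100) all members had 282 higher and 166 lower genes and a mitosis median of 2.47. At 400 UMIs they had 11 and 2, with medians of 1.66 (mitosis) and 0.37 (replication). The Top2a/Cenpf-rich members then had 71 and 166, with 3.39 and 1.11, and the Mki67-alone members 1 and 6. Thinned to 5000 UMIs all members had 9 and 6, with medians of 2.13 (mitosis), 0.45 (replication), -0.16 (lipid-associated) and 0.12 (inflammatory). The Top2a/Cenpf-rich members had 122 higher, with 4.31 and 1.40, and the Mki67-alone members 2. The inflammatory median of all members was 0.18 with plain CPM, 0.19 with totals without cell cycle genes and 0.10 against cells with 0 to 2 trio UMIs, a comparison that gave the Mki67-alone members 39 lower genes.

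Plain CPM moved every log2 ratio of the Top2a/Cenpf-rich members by 0.17. Their class II median was 0.30, and -0.36 without cells with a Flt3 UMI. Their Flt3 ratio was -0.79 after thinning, from few UMIs, and the Cdc20 ratio of the Mki67-alone members -0.0094 against cells with 0 to 2 trio UMIs. The causes were not tested. The limits are 1 library per condition, 44 Top2a/Cenpf-rich cells, and 67 to 115 macrophages in each of the other libraries.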
